A study of Arabidopsis thaliana with 4 samples.

Results

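The plastid carries its own ribosome, of the bacterial type, with a 30S small and a 50S large subunit. The 39 nuclear genes described here encode proteins named for it, 13 counted with the 30S and 26 with the 50S subunit. They were taken by locus, and 40 of the 37478 probes on the array name one of them, out of 25665 loci named in all. Genes are called PRPS or PRPL by the number of their protein in the small or large subunit. Others are called PSRP, for plastid-specific ribosomal protein, and plastid-specific refers to that name below. The letters in PRPL19a and PRPL19b only tell apart the At4g17560 and At5g47190 loci.

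Plastid ribosomes make the plastid-encoded subunits of the photosystems, of Rubisco and of the plastid RNA polymerase. Part of their own proteins and all of their rRNA are encoded in the plastid genome, while the other proteins are made in the cytosol and imported. In green tissue, assembly of this ribosome therefore draws on nuclear and plastid genes together, and mutants that lack one of the nuclear-encoded proteins are often pale or arrest as embryos.

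The study set the Arabidopsis thaliana mutant ang3 against its wild-type accession Landsberg erecta (Ler) on 4 two-colour arrays. Both genotypes were hybridised to every array in different dyes. The mutant was in Cy5 on replicates 1 and 3, and Ler was in Cy5 on replicates 2 and 4. The ang3 mutation is known to lie in RPL5B, a gene for a protein of the cytosolic, not the plastid, ribosome. Its effect on the transcript is not given in the labels, which name no other allele or agent for either genotype. Seeds spent 3 days in the cold, and plants were then kept at 21 °C under a 16 h photoperiod. RNA came from green seedling tissue (shoot meristem, young leaves, cotyledons), called shoot apex in the sample labels, at stage 1.02 by those labels and 1.03 by the series text. Ratios are log2 ratios with ang3 over Ler throughout, so that a negative value means a lower level in ang3.

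Between 19885 and 21539 probes per array were well above background in the ang3 channel and between 19431 and 21335 in the Ler channel. The RPL5B ratio was -0.04 (SE 0.069, SD 0.22, n = 4; limma adjusted p = 0.70), so that the transcript level gave no check of the genotype labels. The log2 ratios of all genes had a smaller spread on replicate 1 (SD 0.198) than on replicates 2 to 4 (SD 0.285 to 0.335). All 4 leaf markers were above background on at least 3 arrays in ang3 and in Ler, as were 3 of 5 shoot meristem markers in both genotypes. CLV3 and WUS, which mark few cells of the meristem, were not above background on any array. None of 4 seed storage genes was above background on 3 arrays. Of 4 root markers, 3 were in ang3 and 1 in Ler, and 2 of 3 flower markers were in both genotypes.

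Every gene of the set had a mean ratio below 0, from -0.44 at PSRP1 to -0.05 at PRPL15, and the median was -0.19. At a limma adjusted p under 0.05, 26 of 39 genes fell in ang3, none rose and 13 did not pass. Of the 20155 features in the fit (genes and probes without a locus), 11.2% were called lower and 15% higher, and the median ratio was 0.01. All 39 were well above background on 4 of 4 arrays in both genotypes, so that none was lost to the filter on dim probes. Of the 39 genes, 31 had a ratio below 0 on all 4 arrays, 6 on 3 arrays and 2 on 2 arrays. Among the 20155 features, 3838 were below 0 on all 4 arrays. The changes were small: the gene with the lowest mean ratio, PSRP1, fell by 26.4%. In terms of rank, 21 of 39 lay in the lowest 10% of all tested ratios and 36 in the lowest 25%.

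**Figure D1:**
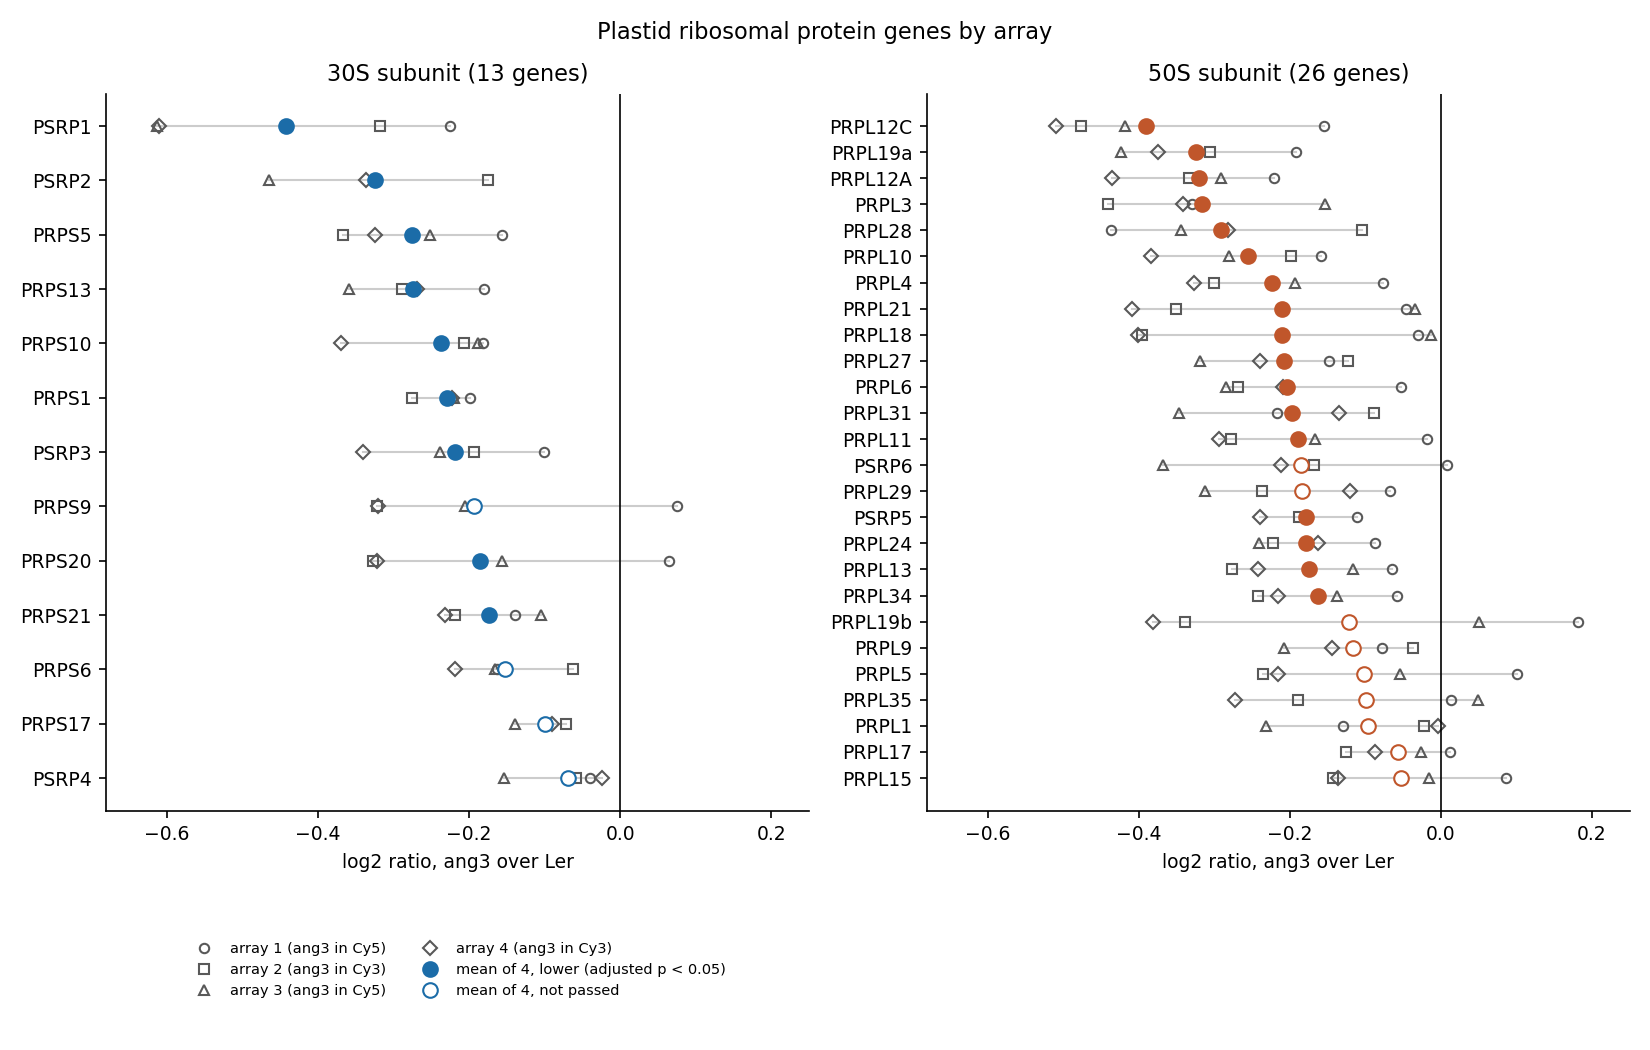
Log2 ratios of ang3 over Ler for the 13 genes of the 30S subunit and the 26 of the 50S subunit, with 1 open grey mark per array and a large circle for the mean of 4 (filled where the limma adjusted p was under 0.05, open where it was not). All means lie left of 0, and replicate 1 gives most of the single values at or right of 0.

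The calls depended on how the arrays were scaled and on single arrays. When median centring of the arrays replaced loess, the median of all genes was 0.143, that of the 39 genes was -0.039, and 0 of 39 were called, against 2.11% of all genes called lower. In that setting 29 of the 39 ratios were below 0 and 10 above, while all 39 lay below the median of all genes, by 0.18 at the median. With the processed signals 11 of 39 fell and none rose (12% of all genes were called lower). Without replicate 3, 0 of 39 were called (0.804% of all genes were called lower), while 13 fell without replicate 1 (6.03% of all genes), 7 without replicate 2 (4.56%) and 7 without replicate 4 (4.73%). In all 11 alternatives except median centring, the 39 mean ratios were below 0. The processed signals and the authors' series table, both among the 11, hold nearly the same ratios. A call lost with either was lost with both. Of the 39, 37 lay in the brightest 25% of tested genes. Over that brightest 25% the median ratio was 0.004 with loess and 0.19 with median centring, and all 39 genes lay below it in both settings.

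**Figure D2:**
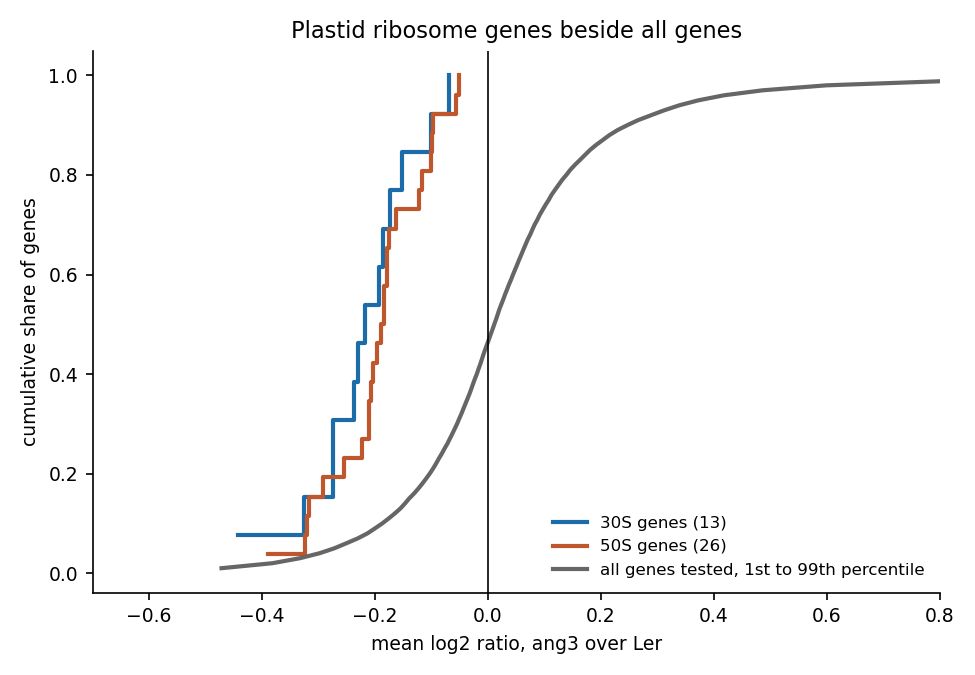
Cumulative share of genes against the mean log2 ratio of ang3 over Ler, for the 13 genes of the 30S subunit, the 26 of the 50S subunit and all 20155 features tested (drawn without the outermost percentiles). Both subunit curves lie wholly left of 0, and they run close to each other.

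The medians of the 30S and the 50S genes lay close to each other. Of 13 genes of the 30S subunit 9 fell and 4 did not pass, with a median of -0.22 (range -0.44 to -0.07). Of 26 genes of the 50S subunit 17 fell and 9 did not pass, with a median of -0.19 (range -0.39 to -0.05). In percent, 69.2% of the 30S and 65.4% of the 50S genes were called lower, against 11.2% of all genes. The 30S medians on replicates 1 to 4 were -0.16, -0.22, -0.21 and -0.32. The 50S medians were -0.07, -0.24, -0.20 and -0.24 on the same arrays. The difference of the medians, 30S minus 50S, was -0.03 over the mean ratios and -0.08, 0.02, -0.01 and -0.08 on replicates 1 to 4. Its sign was thus not the same on every array, and no test of it was made because the genes were chosen with results known. Replicate 1, the array with the smallest spread over all genes, gave the median nearest to 0 in both subunits.

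In the 30S subunit, the proteins along the path of mRNA and tRNA had 5 of 6 genes lower. PRPS1 (At5g30510) encodes the counterpart of a protein that binds mRNA on the Escherichia coli ribosome. Its ratios were -0.20, -0.28, -0.22 and -0.22 on replicates 1 to 4, the closest together of these 6 genes (mean -0.23, SE 0.034, SD 0.033, n = 4; adjusted p = 0.014). On the scale of normalised log2 signal, PRPS1 stood at 12.51, 12.40, 12.43 and 11.98 in ang3, against 12.71, 12.67, 12.65 and 12.20 in Ler. Levels of the genotypes overlapped between arrays, while ang3 was lower within each array. PRPS5 (At2g33800) belongs to the mRNA entry region in E. coli and had ratios of -0.16, -0.37, -0.25 and -0.33 (mean -0.28, SE 0.037, SD 0.093; adjusted p = 0.012). Its log2 signal was 14.68, 14.54, 14.71 and 14.59 in ang3, against 14.83, 14.91, 14.96 and 14.91 in Ler, with no overlap.

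The remaining genes of that group encode proteins of the 30S head and PRPS21. PRPS13 (At5g14320), whose counterpart touches the large subunit and the tRNA in E. coli, was at -0.18, -0.29, -0.36 and -0.27 (mean -0.27; adjusted p = 0.015). PRPS10 (At3g13120) was at -0.18, -0.21 and -0.19 on replicates 1 to 3 and at -0.37 on replicate 4 (mean -0.24; adjusted p = 0.019). PRPS21 (At3g27160), also known as GHS1 for the glucose hypersensitivity of its mutant, was at -0.14, -0.22, -0.10 and -0.23 (mean -0.17; adjusted p = 0.023). These 3 genes were lower in ang3 on 4 of 4 arrays. PRPS9 (At1g74970) had ratios of 0.08, -0.32, -0.21 and -0.32 and did not pass (mean -0.19; adjusted p = 0.059), with replicate 1 alone above 0.

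Of the 3 genes of the 30S body and platform, PRPS20 (At3g15190) fell. It was at 0.06, -0.33, -0.16 and -0.32 on replicates 1 to 4 (mean -0.19, SE 0.048, SD 0.18; adjusted p = 0.047), higher on replicate 1 only. PRPS6 (At1g64510) had a mean of -0.15 (-0.16, -0.06, -0.17 and -0.22; adjusted p = 0.052). PRPS17 (At1g79850), which in E. coli binds rRNA early in assembly, had 4 close ratios of -0.10, -0.07, -0.14 and -0.09 (mean -0.10, SD 0.028; adjusted p = 0.087). Both of these were below 0 on 4 of 4 arrays without passing the test.

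The plastid-specific proteins of the small subunit included the lowest and the highest ratio of the 30S genes. Counted here with the 30S genes, PSRP1 (At5g24490) resembles bacterial hibernation factors and binds in the decoding region of the spinach chloroplast ribosome. It was at -0.23 and -0.32 on replicates 1 and 2 and at -0.61 on both replicates 3 and 4 (mean -0.44, SE 0.083, SD 0.20; adjusted p = 0.022). The call for PSRP1 was lost without replicate 2 (adjusted p = 0.051), without replicate 3 (0.086) and without replicate 4 (0.075). Its log2 signal was 12.22, 11.84, 12.16 and 11.75 in ang3, against 12.45, 12.16, 12.77 and 12.36 in Ler. These levels overlapped, with ang3 the lower channel on each array. PSRP2 (At3g52150), a protein with RNA recognition motifs, was at -0.32, -0.17, -0.46 and -0.34 (mean -0.33, SE 0.047; adjusted p = 0.014). PSRP3 (At1g68590) was at -0.10, -0.19, -0.24 and -0.34 (mean -0.22; adjusted p = 0.028). PSRP4 (At2g38140), a relative of the bacterial Thx protein, had ratios of -0.04, -0.06, -0.15 and -0.02 and did not pass (mean -0.07; adjusted p = 0.23).

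In the 50S subunit, 4 of the 5 stalk genes were lower. The L10 and L12 proteins form the flexible stalk that brings translation factors to the ribosome, with L11 at its base, and L1 forms the stalk on the opposite side, as known from bacteria. PRPL12C (At3g27850) had the lowest mean ratio of the 50S genes, with -0.15, -0.48, -0.42 and -0.51 on replicates 1 to 4 (mean -0.39, SE 0.053, SD 0.16, n = 4; adjusted p = 0.012). Its log2 signal was 9.89, 9.56, 9.62 and 9.51 in ang3, against 10.04, 10.03, 10.04 and 10.02 in Ler. PRPL12A (At3g27830) was at -0.22, -0.33, -0.29 and -0.44 (mean -0.32, SE 0.038, SD 0.090; adjusted p = 0.010). Its log2 signal was 14.67, 14.54, 14.63 and 14.47 in ang3, against 14.89, 14.88, 14.92 and 14.90 in Ler. Neither PRPL12 probe had overlapping levels. By gene order in the reference table, 4 genes separate this pair on chromosome 3, RPL12-B (At3g27840) among them, whose probe was not above background in either genotype on any array. The probe sequences were not used here, so hybridisation shared between PRPL12A and PRPL12C was not tested.

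Among the other stalk genes, PRPL10 (At5g13510) was at -0.16, -0.20, -0.28 and -0.38 (mean -0.26; adjusted p = 0.022). PRPL11 (At1g32990) was at -0.02, -0.28, -0.17 and -0.29 (mean -0.19; adjusted p = 0.030), and its call was lost in 8 of 11 alternatives, a dye-free fit among them (adjusted p = 0.066). PRPL1 (At3g63490) did not pass, with ratios of -0.13, -0.02, -0.23 and -0.003 (mean -0.10; adjusted p = 0.11). All 5 stalk genes were below 0 on 4 of 4 arrays.

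The L5 and L18 proteins bind 5S rRNA in bacteria, and the ratios of both plastid genes split by dye. PRPL18 (At1g48350) fell, with ratios of -0.03 and -0.01 when the mutant was the Cy5 sample and of -0.40 on both arrays of the other orientation (mean -0.21, SE 0.033, SD 0.22; adjusted p = 0.015). PRPL5 (At4g01310) had ratios of 0.10 and -0.05 in the first orientation and of -0.24 and -0.22 in the second, and did not pass (mean -0.10; adjusted p = 0.13). Since orientation and replicate coincide, a gap of that kind and one between replicates 1 and 3 and the other two arrays cannot be told apart. Of the 39 genes, 6 had an unadjusted p under 0.05 for the dye term of the fit, namely PRPL18, PRPL5, PRPL21, PRPL19b, PRPL35 and PRPS20. The same held for 3020 of the 20155 features tested, a similar share. None of the 6 genes passed for the dye term after adjustment over all genes, the smallest adjusted p being 0.24. Without the dye term in the fit, 6 calls were lost. They were those for PRPL18, PRPL21 and PRPS20 (adjusted p = 0.13, 0.11 and 0.13) and for PRPL11, PRPL13 and PRPL34 (0.066, 0.059 and 0.057). In that fit 20 of the 39 genes fell, against 8.23% of all genes. PRPL18 lost its call in 8 of 11 alternatives. For genes with such a gap the SE, which leaves out the dye term, was far below the SD. Averaged within an orientation, 35 of 39 genes were below 0 both with ang3 in Cy5 and with ang3 in Cy3. The same held for 6278 of the 20155 features tested. The median over the 39 was -0.16 with ang3 in Cy5 and -0.25 with ang3 in Cy3.

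The 5 genes of early assembly and the exit of the peptide tunnel had 3 calls. PRPL3 (At2g43030) was at -0.33, -0.44, -0.15 and -0.34 (mean -0.32, SE 0.046, SD 0.12; adjusted p = 0.014), with log2 signals of 15.63, 15.64, 15.69 and 15.74 in ang3, against 15.96, 16.08, 15.85 and 16.08 in Ler. Levels of PRPL3 did not overlap. PRPL4 (At1g07320), whose E. coli counterpart lines the tunnel, fell with ratios of -0.08, -0.30, -0.19 and -0.33 (mean -0.22; adjusted p = 0.018). PRPL24 (At5g54600), an initiator of 50S assembly in E. coli, had a mean of -0.18 and values from -0.24 to -0.09 (adjusted p = 0.037). At the tunnel exit, PRPL29 (At5g65220) did not pass (-0.07, -0.24, -0.31 and -0.12; mean -0.18; adjusted p = 0.063), and neither did PRPL17 (At3g54210), with 0.01, -0.13, -0.03 and -0.09 (mean -0.06; adjusted p = 0.26).

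Of the 4 genes for proteins at the peptidyl transferase centre and the bridges between subunits, 3 fell. PRPL27 (At5g40950), whose counterpart reaches the peptidyl transferase centre in E. coli, had a mean of -0.21, with -0.15, -0.12, -0.32 and -0.24 on the arrays (adjusted p = 0.033). PRPL31 (At1g75350) was at -0.22, -0.09, -0.35 and -0.13 (mean -0.20; adjusted p = 0.026). The L19 protein, at the interface of the subunits, has a pair of genes. PRPL19a fell, with -0.19, -0.31, -0.42 and -0.37 (mean -0.32, SE 0.050, SD 0.10; adjusted p = 0.015), and log2 signals of 13.90, 13.86, 13.82 and 14.01 in ang3, against 14.09, 14.16, 14.24 and 14.38 in Ler. PRPL19b was at 0.18 and 0.05 on replicates 1 and 3, with -0.34 and -0.38 on the other arrays, and did not pass (mean -0.12, SE 0.040, SD 0.28; adjusted p = 0.080). Its log2 signals overlapped, at 15.19, 14.86, 15.04 and 14.94 in ang3, against 15.01, 15.20, 14.99 and 15.32 in Ler. The pair had nearly the same ratios on replicates 2 and 4, and the difference between the 2 genes was not tested.

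The other rRNA-binding proteins of the 50S subunit had 5 of 8 genes lower. PRPL28 (At2g33450) was at -0.44, -0.10, -0.34 and -0.28 (mean -0.29, SE 0.046, SD 0.14; adjusted p = 0.015), and was the one called gene of the set whose lowest value came from replicate 1. PRPL21 (At1g35680) was at -0.05 and -0.03 on replicates 1 and 3 and at -0.35 and -0.41 on replicates 2 and 4 (mean -0.21; adjusted p = 0.016). PRPL6 (At1g05190), PRPL13 (At1g78630) and PRPL34 (At1g29070) had means of -0.20, -0.18 and -0.16 (adjusted p = 0.042, 0.025 and 0.031), each below 0 on 4 of 4 arrays. PRPL9 (At3g44890) had ratios of -0.08, -0.04, -0.21 and -0.14 and did not pass (mean -0.12; adjusted p = 0.10). PRPL35 (At2g24090) was above 0 on replicates 1 and 3 (0.01 and 0.05), with -0.19 and -0.27 on replicates 2 and 4 (mean -0.10; adjusted p = 0.10). PRPL15 (At3g25920) had the ratio closest to 0 of all 39, at 0.09, -0.14, -0.02 and -0.14 (mean -0.05; adjusted p = 0.33). The further PRPL15 probe was not above background on any array.

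The plastid-specific proteins of the large subunit lay near the median of the set. PSRP5 (At3g56910) was at -0.11, -0.19, -0.18 and -0.24 (mean -0.18, SD 0.053; adjusted p = 0.025). PSRP6 (At5g17870) was at 0.008, -0.17, -0.37 and -0.21 and did not pass (mean -0.18, SD 0.15; adjusted p = 0.11). Over both subunits, 4 of the 6 plastid-specific genes fell.

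Seen as levels in each channel, 15 of the 39 genes had all 4 ang3 values below all 4 Ler values, against 9.28% of all genes tested. These were 5 of 13 genes of the 30S and 10 of 26 of the 50S subunit. The opposite arrangement, found for 13.2% of all genes, held for 0 of the 39. Fewer green cells in the sampled tissue and less of these RNAs per cell cannot be told apart in such bulk samples. Marker genes moved as well: STM, KNAT1 and KNAT6 of the shoot meristem rose (0.36, 0.32 and 0.19). Of the leaf markers, the photosynthesis genes CAB1 and RBCS1A fell (-0.44 and -0.17). Of the leaf development genes among them, AS1 rose (0.40) and AFO did not pass (0.05). The flower marker PI fell (-0.25, adjusted p = 0.031) and AP3 did not pass (-0.07). Their part in the result was not tested. In the authors' deposited values, judged on 1 array at a time, a p under 0.05 was given to 1, 1, 4 and 3 of the 39 genes on replicates 1 to 4, all of them lower in ang3. Of all spots, 2.91%, 3.65%, 3.87% and 3.38% had such a p and a lower level in ang3 on those arrays. With the further demand of an absolute log2 ratio above 1, as the series text sets it, 0 of 39 passed on any array, and 0.578%, 0.709%, 0.451% and 0.544% of all spots passed on the lower side.

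Other nuclear genes of plastid gene expression were mostly lower in ang3 as well. Of 14 plastid translation factors 10 fell, none rose and 4 did not pass, with a median of -0.25. Over all features, 11.2% were called lower. At4g11175, of initiation factor type IF1, was at -0.29, -0.39, -0.26 and -0.51 (mean -0.37; adjusted p = 0.0087). APG3, of a plastid release factor, had a mean of -0.33 (adjusted p = 0.011) and At3g08740, of elongation factor P type, one of -0.40 (adjusted p = 0.012). Of 15 genes for plastid ribosome assembly and rRNA maturation 9 fell, none rose and 6 did not pass, with a median of -0.19. At4g34730, of a protein with an RbfA domain, was at -0.44, -0.62, -0.66 and -0.64 (mean -0.59, SE 0.047; adjusted p = 0.0074). RAP and the GTPase gene EMB269, or ObgC, had means of -0.37 and -0.27 (adjusted p = 0.011 and 0.021).

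The transcription machinery of the plastid had a smaller share of its genes called lower, 40% against 11.2% of all features. Of its 20 genes 8 fell, none rose and 12 did not pass, with a median of -0.18. TRX z, a thioredoxin bound to the plastid RNA polymerase, was at -0.33, -0.36, -0.38 and -0.51 (mean -0.39; adjusted p = 0.0086). PTAC12 and the sigma factor gene SIG2 had means of -0.25 and -0.28 (adjusted p = 0.015 and 0.017). For comparison, 29 of 38 nuclear genes of photosystem and light-harvesting proteins fell, none rose and 9 did not pass, with a median of -0.26. The smallest p-values there belonged to CAB1, LHB1B1 and PSAH2, with means of -0.44, -0.40 and -0.34 (adjusted p = 0.0088, 0.009 and 0.009). Of these, LHB1B1 was at 0.06 and -0.01 on replicates 1 and 3 and at -0.91 and -0.74 on the others. Its ratios thus split by orientation as those of PRPL18 did. PSAH2 split the same way, at -0.20 and -0.13 on replicates 1 and 3 and -0.47 and -0.55 on the others. CAB1 split the opposite way, at -0.79 and -0.67 on replicates 1 and 3 and -0.24 and -0.07 on the others. On replicates 1 to 4 the photosystem medians were -0.06, -0.49, -0.12 and -0.35. Those of the plastid ribosome genes were -0.10, -0.24, -0.21 and -0.27. None of the 25 ribosomal protein loci of the plastid genome was found by name among the probes, so no subunit partner from that genome is given here. No set of genes was tested against another. With median centring 1 translation factor gene, 1 assembly gene, 1 transcription gene and 7 photosystem genes were called lower, against 2.11% of all genes. In that setting 2 assembly genes and 1 transcription gene were called higher, against 34.5% of all genes.

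**Figure D3:**
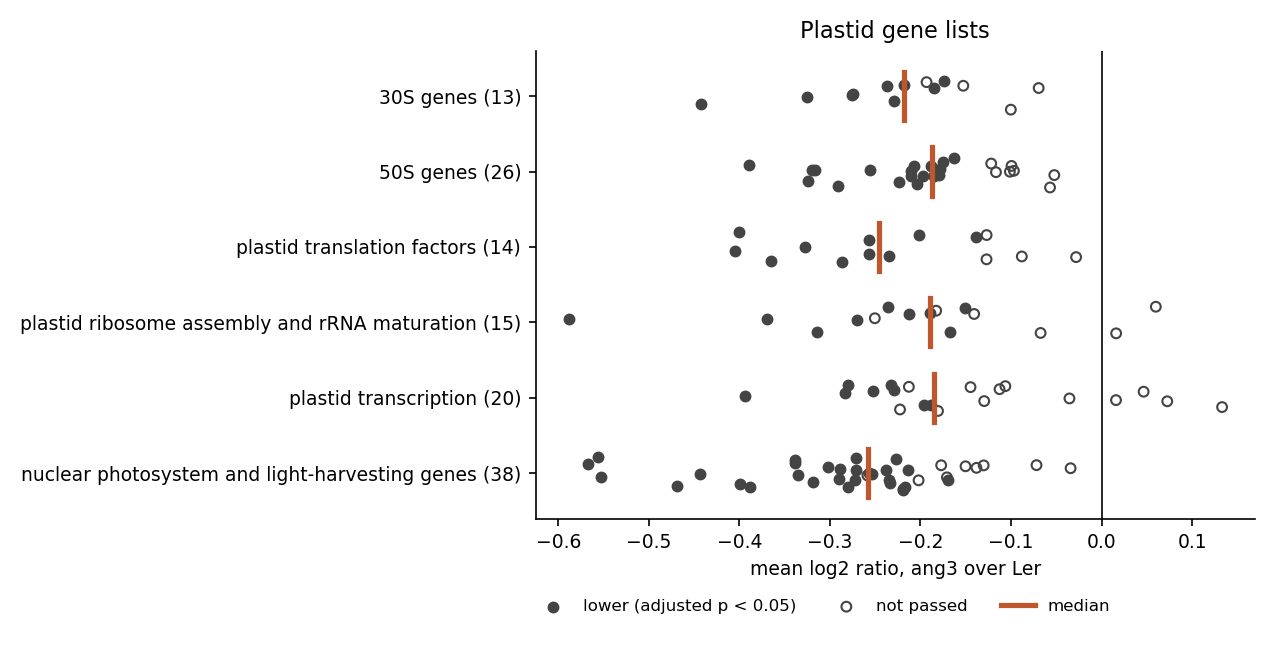
Mean log2 ratio of ang3 over Ler for each tested gene of 6 lists, with filled points for genes called lower, open points for those that did not pass and a bar at the median. The 2 subunit lists have medians of -0.22 and -0.19, between those of the transcription (-0.18) and the photosystem list (-0.26).

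The plot of processing settings sets the number of calls beside the medians. The calls ranged from 0 to 27 of 39 (27 with the stricter filter on dim probes, where 12.7% of all genes were lower), while the median of the 39 lay below that of all genes by 0.16 to 0.24 in every setting tried.

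**Figure D4:**
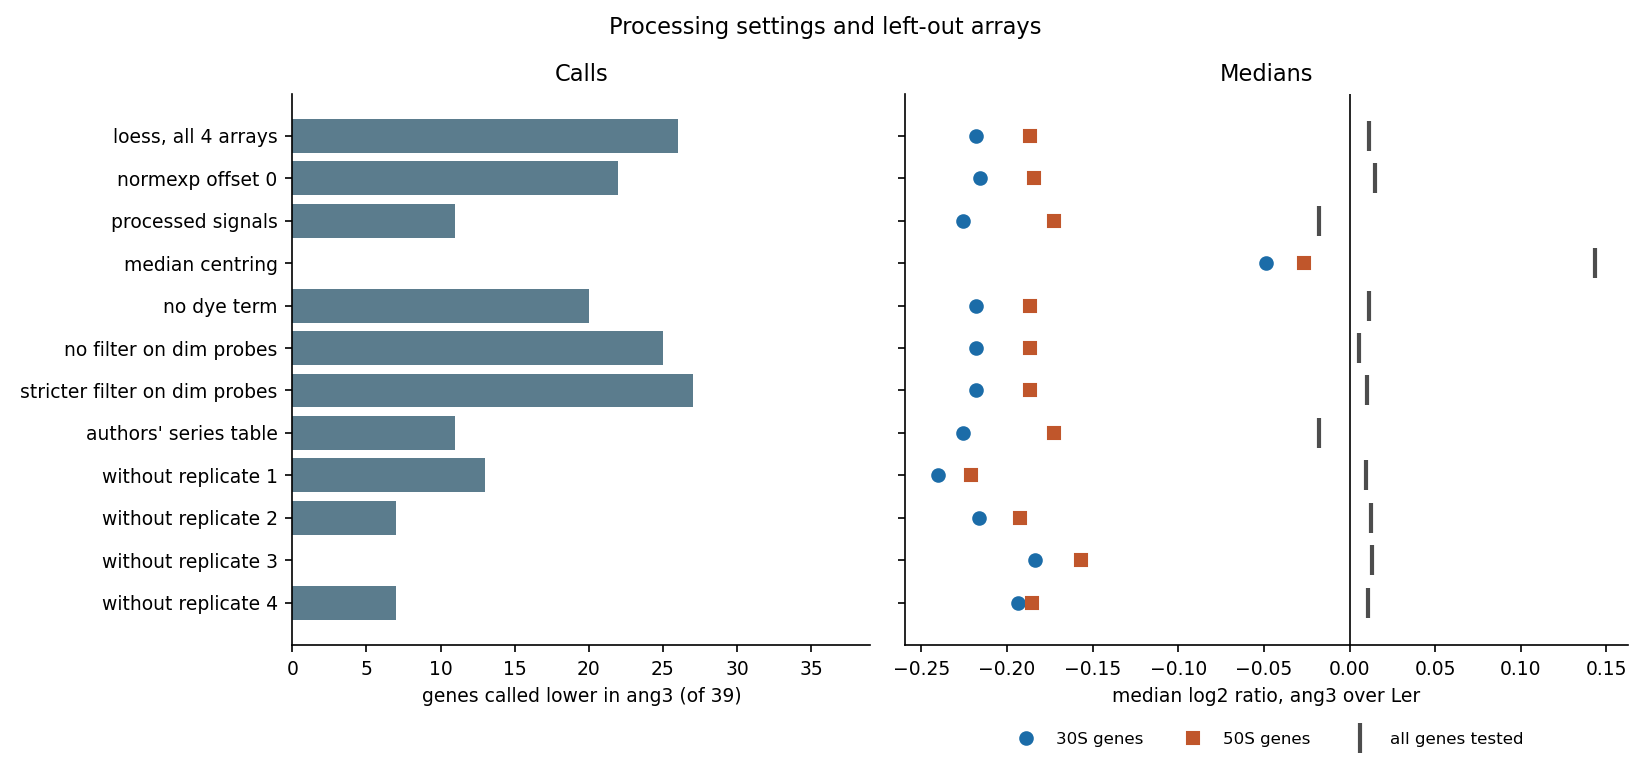
Left, the number of the 39 plastid ribosome genes called lower in ang3 under each setting or without each array. Right, the median log2 ratio of the 30S genes, the 50S genes and all genes tested, where the subunit medians lie left of the bar for all genes in each row and, with median centring, near 0.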

How the data were processed

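RNA of ang3 and of Ler was compared directly on 4 two-colour Agilent arrays. Per the file headers and the submitters' processing notes, the scanner images were read with Agilent's Feature Extraction (version 10.1.1.1). The spot and background intensity values used are the deposited median pixel intensities. The processed signals were background-subtracted and dye-normalized by the authors, per the file headers. The deposited log10 ratio and p-value come from Feature Extraction, 1 array at a time. The authors' series table holds log2 ratios that matched the processed signals turned to ang3 over Ler (r of 1.00 on each array). Its column medians were -0.045, 0.026, 0.0077 and -0.097, so it was not centred. No genome build is given in the sources used here, and no coordinates are printed.

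Intensities were corrected with normexp (offset 50) and normalized by loess within arrays, leaving out control and outlier spots (limma 3.58.1 in R 4.3.3, figures with matplotlib 3.10.9). Probes entered the fit when 3 or more of the 4 arrays had them well above background in either genotype. The brightest probe stood for each locus, giving 20155 features. Ratios were fitted with lmFit and eBayes on dye orientation and a dye intercept (residual degrees of freedom 2, prior 3.03), with Benjamini-Hochberg adjustment over all features. The fit was tested on simulated data. SE comes from the fit, SD from the 4 ratios. Channel levels were taken after Aquantile normalization between arrays. Precision is limited by having 4 arrays. Each array counted as 1 replicate. The labels do not say which arrays share extracts, so the spread may be partly technical. All arrays came from 1 scan, so no batch could be tested.

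The members, the roles and the gene lists were chosen with earlier results of these data known. Every member was named, with values by array for the lowest and highest ratios of each subunit, the PRPL12 and PRPL19 pairs, the plastid-specific genes and PRPS1, PRPS5, PRPS17, PRPS21 and PRPL11, and of each other list the 3 genes with the smallest p. Values by array of other members were added after they had been seen. Symbols came from the TAIR10.1 gene table, while names of members follow their protein. Near-identical genes can share signal.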

Additional observations from a re-analysis of the deposited data

Results flagged for a closer look

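Of the 39 genes, 1 had an array far from the other 3. PRPS10 stood at -0.37 on replicate 4 and between -0.21 and -0.18 on replicates 1 to 3. Such a gap is met by chance in about 1 of 20 groups, and 39 genes were examined. Without replicate 4 the PRPS10 mean was -0.20 and its call was lost (limma adjusted p = 0.058).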

How the results depend on the processing

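No gene of the set changed direction with a call under any of 11 alternatives, but the calls themselves were sensitive. Of the 26 called genes, 4 (PSRP2, PRPS5, PRPL12A and PRPL12C) lost their call only with median centring and without replicate 3. Another 7 lost it under 3 or 4 alternatives and 15 under 6 or more. Losses with the processed signals are counted again there with the authors' series table, which holds nearly the same ratios. PRPS9, PRPS6 and PSRP6 gained a call under 1 alternative each. With the processed signals, and alike with the authors' series table, 5 of 13 genes of the 30S and 6 of 26 of the 50S subunit fell (11 in all), as did 5 assembly and 19 photosystem genes. With median centring 0 of the 39 fell, so 0 in either subunit, and the medians were -0.039 over the 39, -0.049 for 30S and -0.027 for 50S. In that setting 425 genes were called lower and 6947 higher over the whole array, against 2265 and 3018, so that the higher share of all calls was 94.2%, against 57.1% with loess and 46.8% from processed signals. The lists then had 1 translation factor, 1 assembly, 1 transcription and 7 photosystem genes lower, and 2 assembly and 1 transcription genes higher. Without a dye term 20 of the 39 fell (8 in 30S and 12 in 50S), as did 4 assembly and 13 photosystem genes, against 8.23% of all genes. The cause of these shifts was not tested.

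Leaving out 1 array, which leaves 1 residual degree of freedom, gave 0 (without replicate 3) to 13 of 39 genes lower, 0 to 6 in 30S and 0 to 7 in 50S, and 0 higher. The medians ranged from -0.234 to -0.162 over the 39, from -0.240 to -0.184 for 30S and from -0.221 to -0.157 for 50S, and their difference from -0.027 to -0.008. Over the whole array 162 to 1215 genes were lower and 374 to 1678 higher. In the lists 0 to 7 translation factors, 1 to 5 assembly, 0 to 4 transcription and 4 to 25 photosystem genes were lower, and 0 higher. The fit is itself paired, since each ratio is taken within an array, so no further replicate block was added. The slide could not be a block because there was 1 scan.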

Other observations

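Names of embryo-defective mutants are attached to 9 of the 39 genes in the reference gene table (PRPS5, PRPS13, PRPL1, PRPL4, PRPL6, PRPL10, PRPL13, PRPL18 and PRPL31). Of these 9, 8 fell in ang3 and PRPL1 did not pass, with a median log2 ratio of -0.21, against 11.2% of all genes called lower. All 9 were below 0 on 4 of 4 arrays, as were 3838 of the 20155 features tested. Of the other 30 genes 18 fell and 12 did not pass, with a median close to that of the 9, at -0.18, and 22 were below 0 on 4 of 4 arrays. This division was made after the values had been seen, and it was not tested.

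The reference table names 3 further loci for plastid ribosomal proteins that are not among the 39. Their assignment to the plastid ribosome rests here on those names alone and was not checked. RPL3P (At3g17465), annotated as a plastid L3 protein, was higher in ang3 on 4 of 4 arrays, at 0.27, 0.31, 0.37 and 0.15 (mean 0.27, SE 0.045, SD 0.092; limma adjusted p = 0.016), whereas PRPL3 (At2g43030) had a mean of -0.32. PSRP3/2 (At5g15760), a second gene of the PSRP3 type, was at 0.02, 0.04, -0.17 and -0.05 and did not pass (mean -0.04; adjusted p = 0.57), whereas PSRP3 (At1g68590) had a mean of -0.22. RPL12-B was not above background. The differences within these pairs were not tested.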
